A study of Mus musculus with 15 samples.

Results

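A set of 10 genes of bone morphogenetic protein (BMP) signalling were followed across sorted mouse liver cells: the ligands Bmp2 and Bmp4, the receptors Bmpr1a and Bmpr2, the inhibitors Smad6, Smad7 and Bambi, and the Id genes Id1, Id2 and Id3. They were taken by name from a table of 24493 genes, all 10 were found in it, and all 10 were among the 13905 genes with at least 1 TPM (a transcript abundance corrected for gene length and library total) in at least 3 libraries. The set was chosen by the measured DDC responses of these libraries, because Id1 responded to DDC in opposite directions in hepatocytes and biliary cells, so the DDC responses of these 10 genes are given as descriptions with no test.

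The study profiled RNA of 15 libraries in 5 groups of 3. Per the labels, every mouse was injected when 4 weeks old with AAV-TBG-Cre, in which the hepatocyte promoter TBG drives Cre recombinase and so marks cells of hepatocyte origin. Untreated mice gave a hepatocyte group and a biliary group. Mice moved at 5 weeks of age to chow with DDC, a porphyrinogenic compound that injures the bile ducts, were kept on it for 4 weeks and gave hepatocytes, biliary cells and reprogrammed cells, which the series title describes as reprogrammed hepatocytes. Cells were sorted straight from the liver without culture, and the labels name no sorting markers. Nor do they say that replicates came from separate animals, so p-values measure the spread between these libraries, which may be technical.

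BMP ligands bind paired type I and type II serine/threonine kinase receptors, which phosphorylate SMAD1, SMAD5 and SMAD9, and these enter the nucleus with SMAD4. Id1, Id2 and Id3 are direct targets, and the proteins they encode bind E proteins and keep them from DNA. In the liver the pathway is best known for iron control: BMP6 and its co-receptor hemojuvelin drive hepatocytes to make hepcidin, the hormone encoded by Hamp.

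All values below are TPM divided by 1 scale factor per library (scaled TPM), which are corrected for gene length, and differences are on the log2(scaled TPM + 1) scale, which understates changes of low genes. A gene was called where its adjusted p from limma, over all 13905 genes, was under 0.05 and its difference was at least 1. The marker genes of the labelled cells were present: the 10 hepatocyte markers summed to 157945 to 176409 scaled TPM in untreated hepatocytes, and the 10 biliary markers to 10758 to 12436 in untreated biliary cells against 45.9 to 85.2 in untreated hepatocytes. Hepatocyte markers also summed to 31391 to 40587 in untreated biliary cells and to 14658 to 33503 in DDC biliary cells. Among DDC hepatocytes, library 1 stood apart with 84059 against 155818 and 171898 in the others. The libraries differed in how many genes reached 1 TPM, from 10231 to 10432 in untreated hepatocytes to 13386 to 13636 in DDC biliary cells. In bulk samples such as these, fewer cells of a type and less RNA per cell cannot be told apart.

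Promoter stretches of 3 genes are shown because they hold, in the letters themselves, sequences that SMAD proteins are known to bind, GGCGCC and the palindrome GTCTAGAC. Windows from 250 bases before to 50 after the RefSeq start site (build GRCm38.p6) were given for 6 of the 10 genes, Id2, Id3, Bmp4, Bmpr1a, Bmpr2 and Smad6, and for 41 of 61 other pathway genes. The capitals mark GGCGCC in Id2 (chr12:25096258-25096342, minus strand) and Hamp (chr7:30944030-30944169, minus strand) and GTCTAGAC in Smad6 (chr9:64022040-64022179, minus strand).
Id2: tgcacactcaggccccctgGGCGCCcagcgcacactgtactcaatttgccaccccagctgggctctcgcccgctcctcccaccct
Smad6: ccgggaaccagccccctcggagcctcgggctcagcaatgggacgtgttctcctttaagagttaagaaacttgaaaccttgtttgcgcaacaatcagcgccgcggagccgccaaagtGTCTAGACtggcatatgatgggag
Hamp: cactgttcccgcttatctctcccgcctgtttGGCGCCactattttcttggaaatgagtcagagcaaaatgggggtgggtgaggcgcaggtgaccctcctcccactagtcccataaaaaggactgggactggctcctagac
Both motifs equal their own reverse complement, so 1 search covered both strands. GGCGCC was found in 11.9% of 32851 mouse promoter windows and GTCTAGAC in 0.213%, counting windows with at least 1 match. Bmpr1a and Bmpr2 also held 1 GGCGCC each, and so did some other pathway genes, among them Id4, Smad9 and Chrd. Id3 held 2 copies of the short element CAGAC or its reverse complement GTCTG, which 49.6% of windows held at least once, and Bmp4 held none of the 3 motifs. The letters GTCTAGAC contain GTCTA and not CAGAC or GTCTG, so the searches did not overlap there. The windows of Id3 and Bmpr2 lay wholly within an annotated exon (300 bases), and those of Id2 and Bmpr1a in large part (211 and 191 bases). A match describes the letters and is not evidence of binding.

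Id1 (chromosome 2, 152736251 to 152737410, GRCm38) encodes a helix-loop-helix protein without a DNA-binding region and was the member with the widest range. It stood at 3.07, 2.22 and 2.83 scaled TPM in the 3 libraries of untreated hepatocytes and at 256, 160 and 252 in untreated biliary cells. In DDC mice it stood at 33.7, 150 and 176 in hepatocytes, at 91.8, 93.2 and 102 in reprogrammed cells and at 127, 69.0 and 88.0 in biliary cells. Every library of untreated hepatocytes therefore lay below every other library, while the 3 groups of DDC mice overlapped each other. In ascending order the group means were 2.71 ± 0.439 in untreated hepatocytes, 94.6 ± 29.4 in DDC biliary cells, 95.8 ± 5.81 in reprogrammed cells, 120 ± 75.6 in DDC hepatocytes and 223 ± 54.7 in untreated biliary cells (SD, n = 3 each). Only the first step of that order was larger than the summed SDs of the neighbouring groups.

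Id3 (chromosome 4, 136143497 to 136145755) followed the same order in untreated cells but not under DDC. Its values were 20.5, 21.5 and 14.1 scaled TPM in untreated hepatocytes, 189, 121 and 187 in untreated biliary cells and 137, 265 and 424 in DDC hepatocytes. Reprogrammed cells held 85.9, 156 and 155, and DDC biliary cells 88.0, 81.9 and 66.7. DDC hepatocytes had the highest mean of the 5 groups, 276 ± 144 (SD, n = 3), and all 3 of their libraries lay above all 3 of DDC biliary cells.

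Id2 (chromosome 12, 25093799 to 25097140), the most abundant of Id1, Id2 and Id3 in every group, varied least. It stood at 169, 98.3 and 96.2 scaled TPM in untreated hepatocytes and at 264, 420 and 559 in DDC hepatocytes. Reprogrammed cells held 408, 359 and 406, DDC biliary cells 496, 378 and 433, and untreated biliary cells 516, 400 and 483. Untreated hepatocytes were again below all other libraries, and the other 4 groups, with means from 391 to 466, did not separate beyond their spread.

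**Figure D1:**
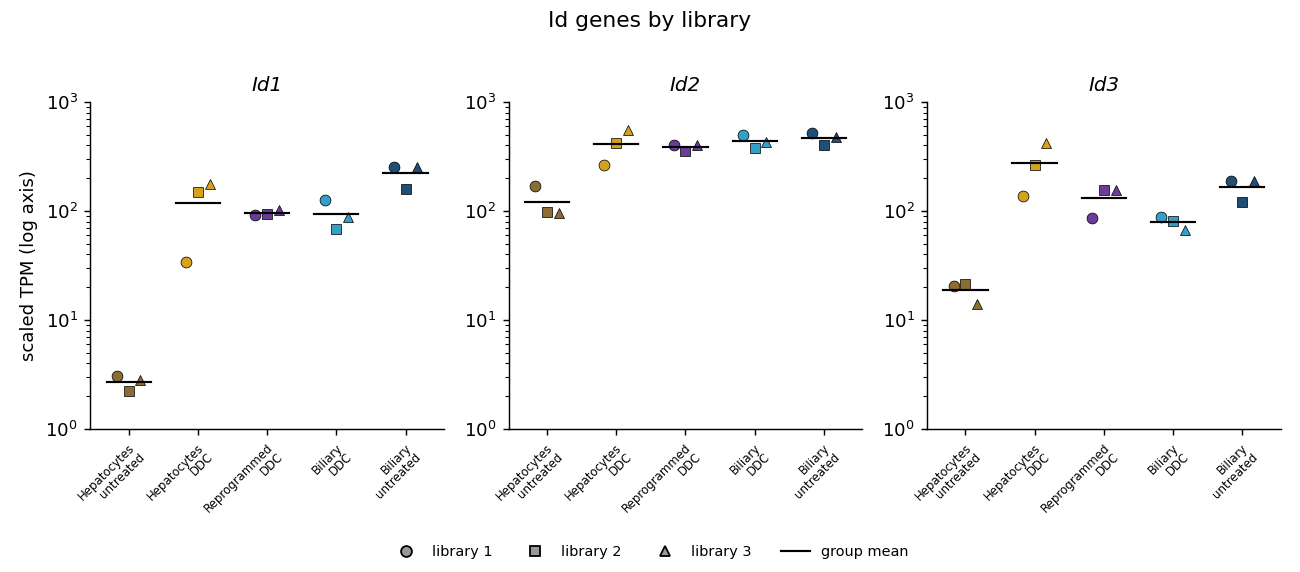
Scaled TPM of Id1, Id2 and Id3 on a log axis in the 5 groups; symbols are the 3 libraries of a group by number and lines are group means. Untreated hepatocytes are lowest for each gene, and Id1 goes from a mean of 2.71 there to 120 in DDC hepatocytes, while it goes from 223 to 94.6 between untreated and DDC biliary cells.

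The first comparison asked how the pathway differed between the lineages at rest. In untreated mice, Id1, Id2, Id3, Smad6, Smad7, Bambi and Bmpr1a were called higher in biliary cells, which is 7 of 10 members against 21.6% of all genes called higher, and none was called lower by limma against 15.6%, nor was any lower at an unadjusted p under 0.05. The members' median difference was 1.95, against 0.12 over all genes. Id1 was 5.89 higher (95% interval 4.87 to 6.91, adjusted p = 2.5e-07 from limma), an 82.3-fold ratio of means. Id3 was 3.08 higher (adjusted p = 7.29e-06) and Id2 1.98 higher (adjusted p = 2.1e-05), both by limma. These libraries are also part of the DDC contrasts by which the set was chosen, so the sizes of the Id1 and Id3 differences are not independent of that choice.

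Among the inhibitors, Bambi, which encodes a decoy receptor lacking a kinase domain, was low in hepatocytes. It stood at 0.995, 0.768 and 0.690 scaled TPM in untreated hepatocytes and at 15.6, 17.3 and 12.5 in untreated biliary cells, 3.14 higher (SE 0.27, adjusted p = 5.02e-07 from limma). Bambi reached 1 TPM in 10 libraries, of hepatocytes only in library 3 of DDC mice, and so passed the filter only through groups in which it was high. Its tests against hepatocytes, also within the counts of called members, are therefore given as a description, here and below. Smad6 (chromosome 9, 63953076 to 64022059), an inhibitory SMAD that blocks BMP receptors and is itself a target of the pathway, stood at 1.22, 0.706 and 1.16 against 9.61, 7.91 and 9.82. Smad7, the inhibitory SMAD that acts on both BMP and TGF-beta receptors, stood at 3.73, 2.21 and 3.48 against 16.0, 10.5 and 17.9. Smad6 was 2.32 higher (adjusted p = 7.09e-07) and Smad7 1.92 higher (adjusted p = 0.000347) by limma, with no overlap of libraries for any inhibitor.

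The receptors differed less, and the ligands were low. Bmpr1a (chromosome 14, 34410734 to 34503341), a type I receptor, stood at 18.3, 20.3 and 15.5 scaled TPM in untreated hepatocytes and 38.5, 38.8 and 33.6 in untreated biliary cells, and was 1.0 higher (adjusted p = 2.31e-05 from limma). Bmpr2 (chromosome 1, 59763400 to 59879014), the type II receptor, was 0.97 higher (adjusted p = 0.000207 from limma), just under the size needed for a call. Bmpr1a lost its call without library 3 of untreated hepatocytes (0.90) and without library 1 (0.97) or 2 (0.97) of untreated biliary cells, while Bmpr2 gained one without library 2 of untreated hepatocytes (1.10) or library 3 of untreated biliary cells (1.02).

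Bmp2 (chromosome 2, 133552159 to 133562885) was at 0.121, 0.362 and 0.219 scaled TPM in untreated hepatocytes and 1.05, 0.937 and 1.32 in biliary cells. It reached 1 TPM in 9 libraries, none of hepatocytes, and so passed the filter only through groups in which it was high. Its tests against hepatocytes are therefore given as a description, here and below. Its difference of 0.77 passed the adjusted p (0.0148 from limma) but not the size, and it was -0.35 with quantile normalization. Bmp4 (chromosome 14, 46383520 to 46390669) was at 2.50, 0.763 and 1.73 against 0.884, 0.849 and 0.977, a difference of -0.43 (95% interval -0.92 to 0.06) that turned to 0.25 in TPM as deposited. The libraries overlapped for Bmp4 only: the other 9 members were higher in every biliary library and none lower, where 43.0% of all genes were higher and 34.6% lower without overlap.

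Immediate early genes, which respond to tissue dissociation, moved with this comparison: 12 of 12 were called higher in untreated biliary cells, and their summed level was 3592 to 6463 scaled TPM there against 667 to 970 in untreated hepatocytes. Their part in the result was not tested. Scaling also matters between these cell types, because without it the median difference over all genes was 1.11 in favour of biliary cells in untreated mice and 1.06 in DDC mice.

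**Figure D2:**
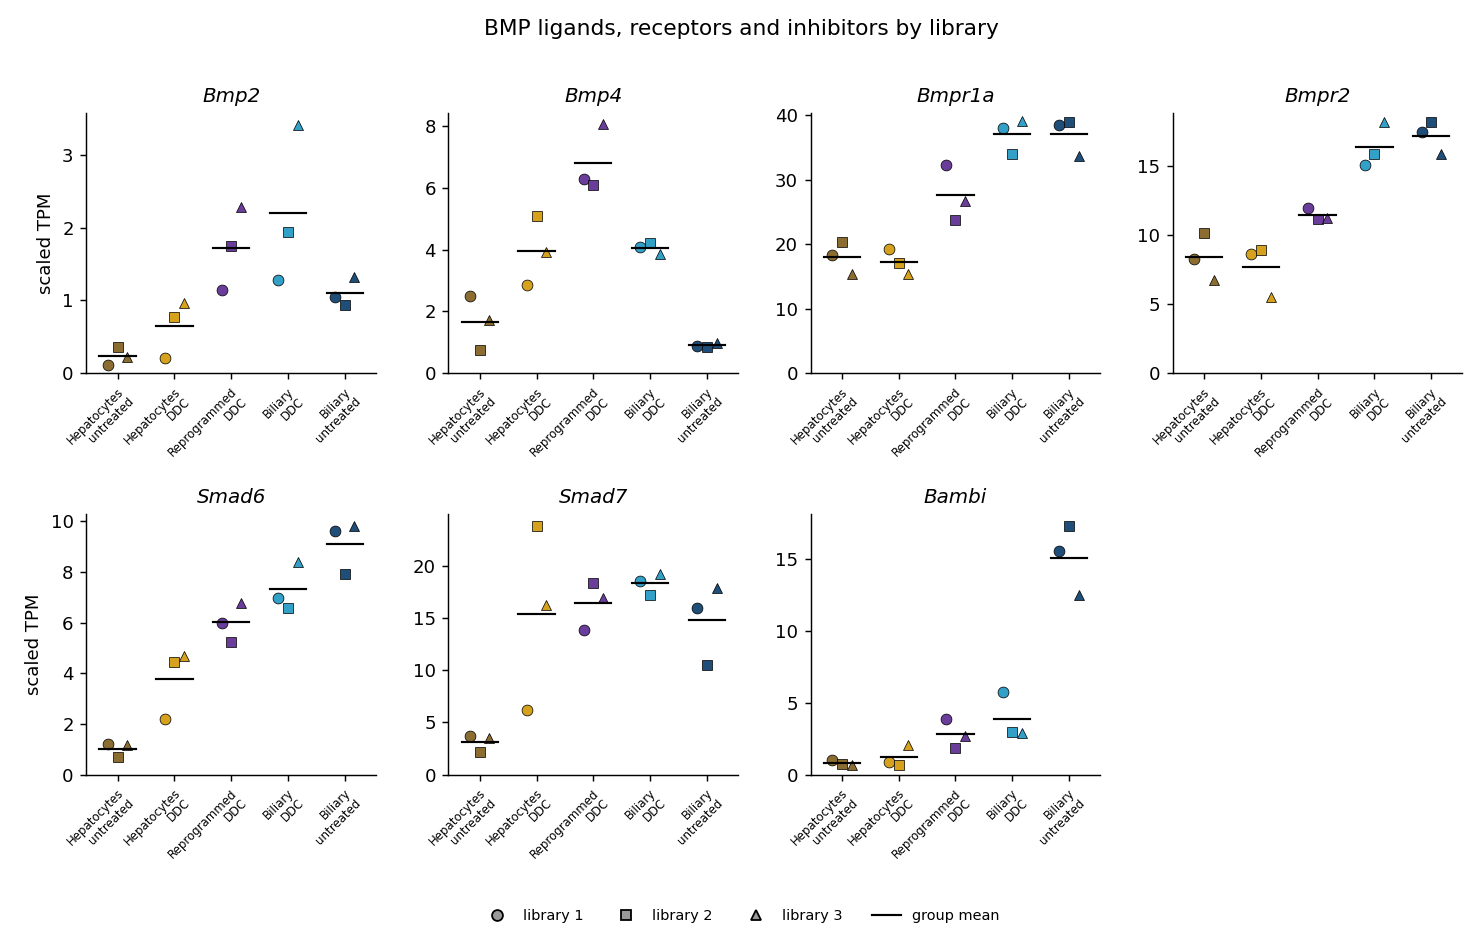
Scaled TPM of the ligands, receptors and inhibitors in the 5 groups, with symbols for the 3 libraries of a group by number and lines for group means. Bmpr1a and Bmpr2 keep their order between cell types with and without DDC, whereas Bambi has a mean of 15.1 in untreated and 3.89 in DDC biliary cells.

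The same comparison in DDC mice gave other values for the Id genes. The difference between the DDC responses, for which the set was chosen, is the untreated difference minus this one. The values and tests of the Id genes here are therefore not independent of that choice and are given as a description. Of the 10 members, 3 were called higher in DDC biliary cells than in DDC hepatocytes (Bmpr1a, Bmpr2 and Bambi, against 20.2% of all genes) and 1 lower (Id3, against 14.4%). The members' median difference was 0.62, against 0.14 over all genes. Id1 differed by -0.07 (95% interval -1.09 to 0.95, adjusted p = 0.902 from limma), an interval that includes differences of about 1 in either direction, and its sign was opposite in TPM as deposited (1.02, adjusted p = 0.042 from limma, called) and with quantile normalization (0.61). Id2 differed by 0.13 (95% interval -0.44 to 0.69, adjusted p = 0.682 from limma), but it was called higher by limma in TPM as deposited (1.23, adjusted p = 0.000338) and with quantile normalization (1.21, adjusted p = 0.000525).

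Id3 was 1.66 lower in DDC biliary cells (difference -1.66, SE 0.36, adjusted p = 0.00128 from limma), and it stayed lower but was not called in TPM as deposited (-0.56) or with quantile normalization (-0.86). Bmpr1a was 1.06 higher (adjusted p = 1.65e-05) and Bmpr2 1.02 higher (adjusted p = 0.000154) by limma, close to their differences of 1.0 and 0.97 in untreated mice. Their values were 19.3, 17.1 and 15.4 against 37.9, 34.0 and 39.1 scaled TPM for Bmpr1a and 8.67, 8.94 and 5.56 against 15, 15.9 and 18.2 for Bmpr2. Without library 3 of DDC hepatocytes both fell just under the size needed, at 0.98 and 0.82, and Bmpr2 also without library 3 of DDC biliary cells, at 0.94.

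Bambi stood at 0.880, 0.694 and 2.07 scaled TPM in DDC hepatocytes and 5.78, 3.01 and 2.89 in DDC biliary cells, 1.15 higher (adjusted p = 0.00238 from limma). That call was lost with quantile normalization (0.10), without library 2 of DDC hepatocytes (0.98) and without library 1 of DDC biliary cells (0.89). Smad6 stood at 2.18, 4.46 and 4.70 against 6.95, 6.57 and 8.41, and its difference of 0.84 passed the adjusted p (0.0033 from limma) but not the size. Smad7 stood at 6.16, 23.8 and 16.2 against 18.6, 17.2 and 19.2 and differed by 0.41 (95% interval -0.35 to 1.18).

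Between the ligands, Bmp2 was at 0.213, 0.778 and 0.97 in DDC hepatocytes and 1.28, 1.93 and 3.40 in DDC biliary cells, 0.93 higher (adjusted p = 0.00512 from limma), but -0.12 with quantile normalization. Bmp4 was at 2.84, 5.09 and 3.91 against 4.07, 4.21 and 3.85, a difference of 0.05 (95% interval -0.44 to 0.54) that became -0.76 with quantile normalization. Without overlap, 5 members (Bmp2, Bmpr1a, Bmpr2, Smad6 and Bambi) were higher in DDC biliary cells, where 36.4% of all genes were, and Id3 was lower, where 28.2% were.

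Reprogrammed cells were compared with the hepatocytes and the biliary cells of the same treatment. None of the 10 members was called in either comparison by limma, where 13.7% of all genes were called higher and 5.77% lower than in DDC hepatocytes, and 2.78% higher and 0.734% lower than in DDC biliary cells. In TPM as deposited, where the median difference over all genes was 0.71 in favour of reprogrammed cells over DDC hepatocytes, 6 members were called higher in the former by limma (Bmp2, Bmp4, Bmpr1a, Bmpr2, Smad6 and Bambi, 1.09 to 1.39). Against DDC hepatocytes, 7 of 10 members had an adjusted p under 0.05 in scaled TPM, as had 47.6% of all genes. Against DDC biliary cells, 3 had an unadjusted p under 0.05 and none an adjusted one, which 14.8% of all genes had, the lowest being 0.052 for Bmpr1a.

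The receptors lay between the other DDC groups. Bmpr1a stood at 32.3, 23.7 and 26.7 scaled TPM in reprogrammed cells, without overlap above DDC hepatocytes and below DDC biliary cells, 0.64 higher than the former (95% interval 0.35 to 0.93, adjusted p = 0.00189 from limma) and 0.42 lower than the latter (difference -0.42, 95% interval -0.71 to -0.13). Bmpr2 stood at 12, 11.2 and 11.2, again between the groups without overlap. Without overlap 5 members, Bmp2, Bmp4, Bmpr1a, Bmpr2 and Smad6, were above DDC hepatocytes (28.2% of all genes were) and none below (20.4%). Bmp4 was above all DDC biliary libraries (14.7%) and Bmpr1a and Bmpr2 were below them (17.5%). Smad6 at 5.97, 5.25 and 6.79 was above all DDC hepatocyte libraries and overlapped DDC biliary cells.

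The ligand Bmp4 reached its highest mean of the 5 groups in reprogrammed cells, with 6.26, 6.09 and 8.04 scaled TPM, above every library of the other 4 groups. Its difference from DDC hepatocytes was 0.67 (adjusted p = 0.0262 from limma) and from DDC biliary cells 0.62 (adjusted p = 0.0825 from limma). Bmp2 stood at 1.15, 1.74 and 2.29, Smad7 at 13.9, 18.4 and 16.9 and Bambi at 3.86, 1.89 and 2.69. Stellate cell and fibroblast markers summed to 279 to 445 scaled TPM in reprogrammed cells. They summed to 15.2 to 24.1 in DDC hepatocytes and 397 to 646 in DDC biliary cells. The part of these markers in the level of Bmp4 was not tested.

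The Id genes did not separate reprogrammed cells from either group by a call. Id1 differed by -0.01 from DDC hepatocytes (95% interval -1.03 to 1.01) and by 0.06 from DDC biliary cells (95% interval -0.96 to 1.08), and both signs turned in TPM as deposited, to 0.77 and -0.25. Id3 was 0.96 lower than in DDC hepatocytes (difference -0.96, adjusted p = 0.0423 from limma), and it was called without library 1 of DDC hepatocytes (-1.39) or library 2 of reprogrammed cells (-1.10). Hepatocyte markers summed to 26538 to 84495 scaled TPM in the libraries of reprogrammed cells, overlapping DDC biliary cells at the low end and DDC hepatocytes at the high end, and the part of that spread in these differences was not tested.

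**Figure D3:**
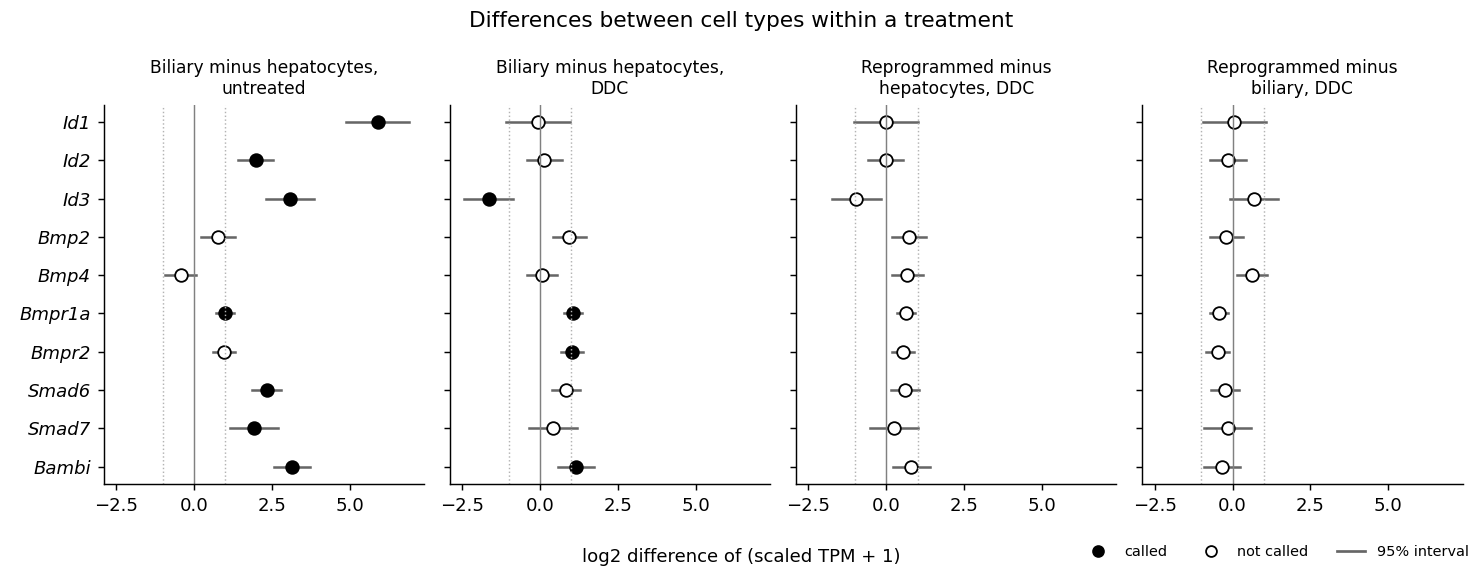
Log2 differences with 95% intervals for the 10 members in the 4 comparisons between cell types of the same treatment; filled symbols were called, and dotted lines mark the size needed for a call. The interval of Id1 lies at 4.87 to 6.91 in untreated mice and spans 0 in the 3 comparisons within DDC mice, while those of Bmpr1a lie above 0 in both biliary against hepatocyte comparisons. The Id1 intervals are not independent of the choice of the set, which used the untreated and DDC libraries of hepatocytes and biliary cells.

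The DDC responses, by which the set was chosen, are described here without tests. In hepatocytes the libraries of DDC mice were all above those of untreated mice for 6 of 10 members, Id1, Id2, Id3, Bmp4, Smad6 and Smad7, and for none all below. Over all genes 20.4% were higher and 18.7% lower without overlap. Differences were 4.72 for Id1, 3.69 for Id3, 1.83 for Smad7, 1.75 for Id2, 1.2 for Smad6 and 0.92 for Bmp4. Those of Bmp2 (0.40), Bambi (0.24), Bmpr1a (-0.05) and Bmpr2 (-0.12) were smaller than 0.5 with overlapping libraries, and the last 2 became 0.19 and 0.12 in TPM as deposited.

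Library 1 of DDC hepatocytes was the lowest of its group for 7 of 10 members, namely Id1, Id2, Id3, Bmp2, Bmp4, Smad6 and Smad7. It is also the library with the low hepatocyte marker sum, and the part of that in these values was not tested. Without it the Id1 response was 5.47 and the Id3 response 4.12. Both had to be larger, because this library was the lowest of its group for both genes. Immediate early genes summed to 694 to 1149 scaled TPM in DDC hepatocytes, overlapping 667 to 970 in untreated hepatocytes, and 4 of 12 were called higher and 0 lower by limma. For the difference between the responses of hepatocytes and biliary cells, 11 of 12 immediate early genes were called higher in hepatocytes by limma, the same direction as for Id1 and Id3. The 10 biliary markers summed to 369 to 681 in DDC hepatocytes against 45.9 to 85.2 in untreated ones, with 4 called higher and 0 lower by limma. The part of either list in the Id responses was not tested.

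In biliary cells 3 members, Id1, Id3 and Bambi, were lower in all DDC libraries than in all untreated ones, and 1, Bmp4, was higher, where 25.8% of all genes were lower and 24.3% higher without overlap. Bambi differed by -1.76, Id1 by -1.24 and Id3 by -1.04, while Bmp4 went from 0.884, 0.849 and 0.977 to 4.07, 4.21 and 3.85 scaled TPM, a difference of 1.41. The rest lay between -0.28 for Smad6 and 0.56 for Bmp2. The summed immediate early genes went from 3592 to 6463 down to 1727 to 2223 in the same libraries, with 9 of 12 called lower and 1 higher by limma, and their part in the lower Id1 and Id3 was not tested.

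The pattern of higher in all hepatocyte libraries and lower in all biliary libraries under DDC was shown by 332 of 13905 genes (2.39%), among them the members Id1 and Id3 and, of the other pathway genes, Fstl3. The difference between both responses was 5.96 for Id1 and 4.73 for Id3. Id2, Smad7, Smad6 and Bambi had differences of 1.85, 1.51, 1.49 and 2.0. The receptors and ligands lay between -0.48 for Bmp4 and -0.05 for Bmpr2.

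**Figure D4:**
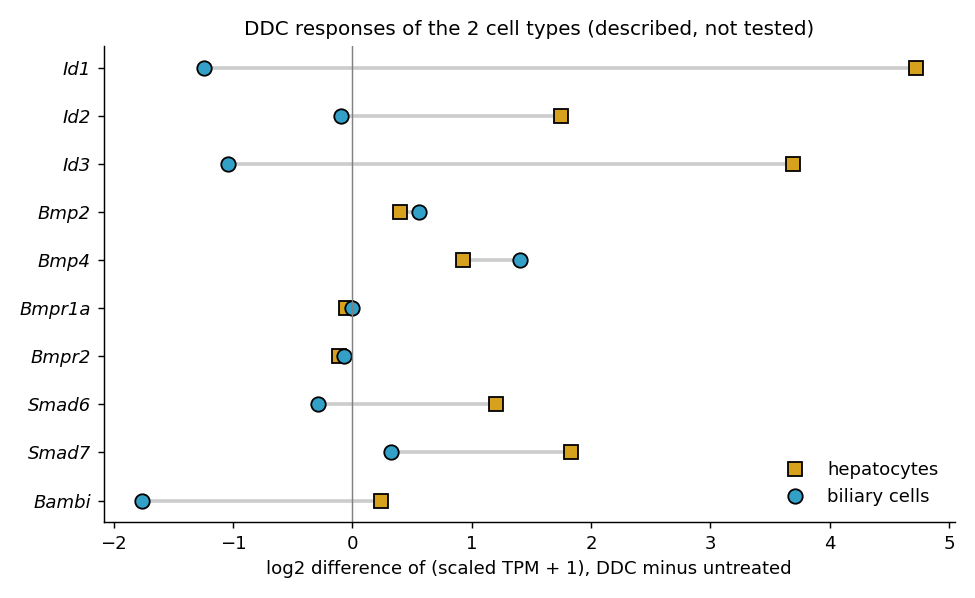
DDC response of the 10 members (log2 difference from untreated cells, horizontal axis) in hepatocytes (squares) and biliary cells (circles), as a description of the values that chose them, with lines joining both responses of a gene. Id1 (4.72 and -1.24) and Id3 (3.69 and -1.04) lie on opposite sides of 0, and Bmpr1a and Bmpr2 lie near 0 in both cell types.

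Beyond the members, 61 other genes of the pathway were followed, of which 44 passed the filter on low values. Noggin and gremlin 1 (Nog and Grem1), 2 secreted antagonists, were among the 17 that did not. In DDC hepatocytes against untreated ones, 5 of the 44 were called higher (background 6.59%) and 0 lower (background 4.42%) by limma, where 2 were lower at an unadjusted p under 0.05. The other 39 were not called. Without library 1 of DDC hepatocytes 8 were called. In DDC against untreated biliary cells 5 were higher (background 5.68%) and 3 lower (background 4.74%), and for the difference between the responses 5 were higher (background 4.94%) and 4 lower (background 3.46%). The medians over the 44 were 0.21, 0.16 and 0.16 against 0.01, -0.02 and 0.01 over all genes. Markers of other cells moved with the biliary comparison: those of stellate cells and fibroblasts summed to 124 to 140 scaled TPM in untreated and 397 to 646 in DDC biliary cells, with 4 of 9 measured called higher and 1 lower by limma. Lymphocyte and other leukocyte markers summed to 0.789 to 2.40 and 21.1 to 28.5, with 2 of 3 measured called higher and 0 lower. Their part in the pathway genes that rose or fell in biliary cells was not tested.

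Among ligands, Bmp6 (chromosome 13, 38345107 to 38500302), the iron-responsive ligand of the liver, was nearly unmeasured in untreated hepatocytes at 0.292, 0.583 and 0.470 scaled TPM and stood at 19.1, 6.82 and 7.0 in DDC hepatocytes. It rose by 2.90 (SE 0.32, adjusted p = 3.7e-05 from limma), and library 1, low for the Id genes, was the highest for Bmp6. Biliary cells held 17.9, 19.1 and 31.1 when untreated and 35.0, 29.1 and 31.7 under DDC, a difference of 0.51 that was not called (adjusted p = 0.265 from limma). The responses differed by 2.39 (adjusted p = 0.00376 from limma). Bmp7, another ligand, fell in biliary cells by 2.12 (adjusted p = 0.000281 from limma), from 13.0, 14.8 and 8.68 to 2.93, 1.36 and 1.78.

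Of the BMP targets, Hamp (chromosome 7, 30942368 to 30944032) was the most abundant by far. It stood at 3866, 3935 and 1506 scaled TPM in untreated hepatocytes and at 5207, 13190 and 17852 in DDC hepatocytes, a difference of 1.91 that just passed (adjusted p = 0.0467 from limma). The groups did not overlap, but the adjusted p ranged up to 0.167 and the call was lost in 12 of 26 alternatives, including leaving out library 2 or 3 of DDC hepatocytes or any of the 3 untreated hepatocyte libraries. In biliary cells Hamp went from 733, 627 and 240 to 1132, 3017 and 1248, a difference of 1.75 that was not called (adjusted p = 0.068 from limma). Hamp2, its close paralogue, whose reads can be shared with Hamp, differed by -0.31 in hepatocytes (adjusted p = 0.864 from limma).

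Id4, the remaining Id gene, was listed at 0 in library 1 of untreated hepatocytes and stood at 0.0567 and 0.286 in the others, against 2.50, 3.51 and 3.44 in DDC hepatocytes. It reached 1 TPM in 7 libraries, all of DDC mice, and so passed the filter only through groups in which it was high. Its DDC tests are therefore given as a description. It rose by 1.90 (adjusted p = 7.41e-05 from limma), and the responses of hepatocytes and biliary cells differed by 1.81 (adjusted p = 0.00281 from limma). Atoh8 (chromosome 6, 72206177 to 72235577), a helix-loop-helix factor that is a BMP target in liver, stood at 65.1, 51.2 and 61.1 in untreated biliary cells and 6.29, 9.31 and 6.19 in DDC biliary cells. It fell by 2.88 there (adjusted p = 0.000478 from limma). In hepatocytes it went from 22.1, 15.8 and 17.1 to 12.7, 38.6 and 51.4, which was not called (adjusted p = 0.296 from limma), and the responses differed by 3.55 (adjusted p = 0.0025 from limma).

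Of 9 measured extracellular antagonists and modulators, 1 was called higher in DDC than in untreated hepatocytes by limma (background 6.59%) and 0 lower (background 4.42%). In DDC against untreated biliary cells 3 were called higher by limma (background 5.68%) and 0 lower (background 4.74%). Fst, which encodes follistatin, a secreted binder of activin and some BMPs, rose in both cell types, by 1.90 in hepatocytes (adjusted p = 0.0022) and by 2.47 in biliary cells (adjusted p = 0.000366) by limma. It stood at 29.9, 12.8 and 22.5 scaled TPM in DDC hepatocytes and 9.16, 12.2 and 10.9 in DDC biliary cells. Pmepa1, which encodes an intracellular inhibitor of receptor-activated SMADs induced by TGF-beta, rose in biliary cells by 2.69 (adjusted p = 6.84e-06 from limma), from 5.21, 4.95 and 6.46 to 34.5, 34.4 and 57.5. It was under 1.5 in every hepatocyte library. Pmepa1 reached 1 TPM in 10 libraries and so passed the filter only through groups in which it was high. Its tests that involve hepatocytes are therefore given as a description.

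Of the remaining calls, Fkbp1a, which encodes a binding protein that keeps type I receptors inactive, rose in hepatocytes by 1.10 (adjusted p = 0.000107 from limma). In biliary cells Fstl1 (1.37), Nbl1 (1.98) and Runx2 (1.30) rose, and Rgma, a BMP co-receptor, fell by 1.09. The responses also differed for Rgma (1.15), Bmp7 (1.79), Pmepa1 (-2.04), Nbl1 (-2.0), Runx2 (-1.36) and the SMAD co-repressor gene Skil (-1.18). Nbl1 and Runx2 fell outside the rule for named genes and were named after their values were seen. Runx2 reached 1 TPM in 4 libraries, all of DDC mice, so it too passed the filter only through groups in which it was high.

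**Figure D5:**
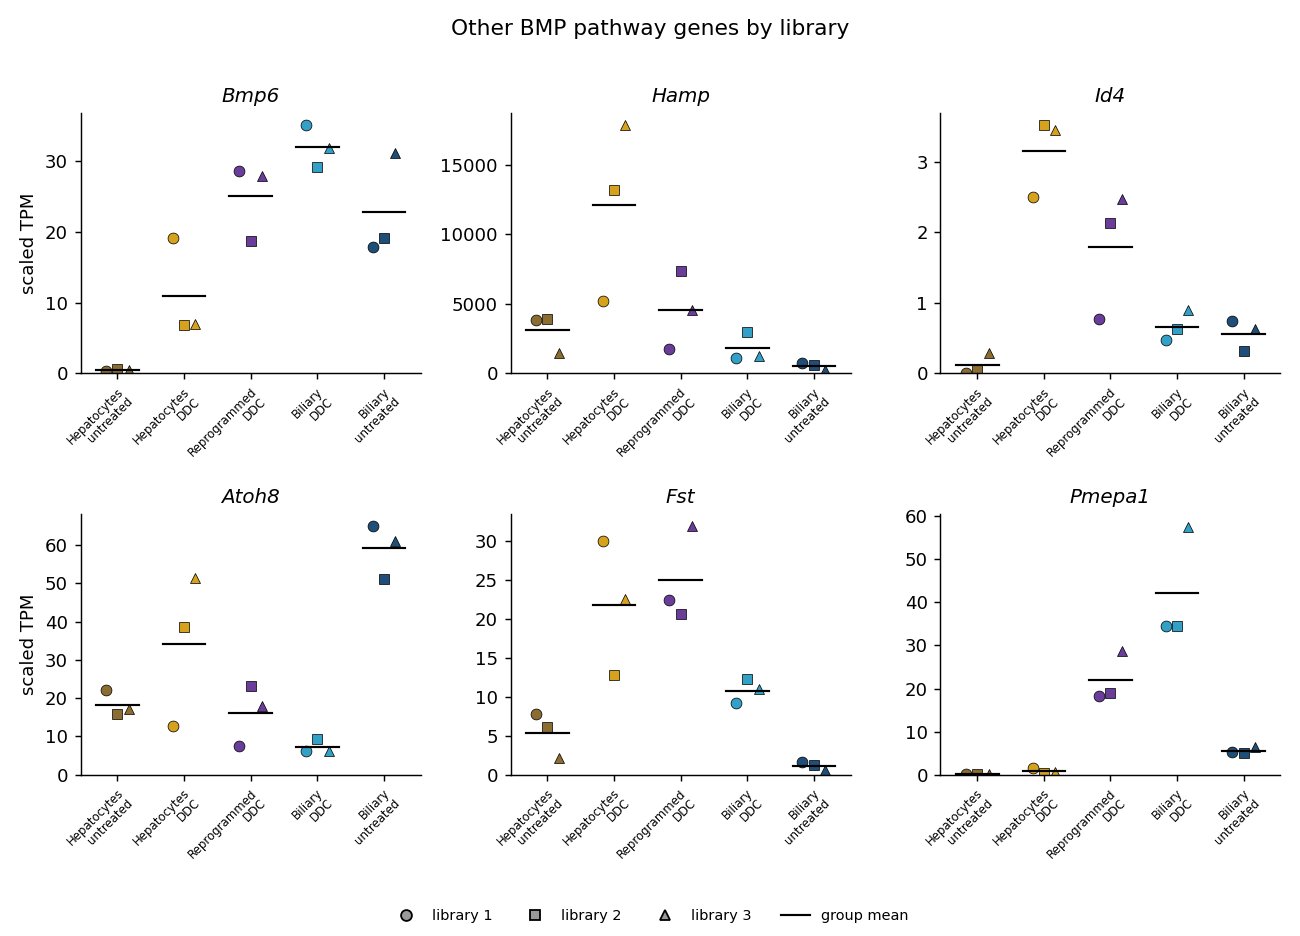
Scaled TPM of Bmp6, Hamp, Id4, Atoh8, Fst and Pmepa1 in the 5 groups, with symbols for the 3 libraries of a group by number and lines for group means. Bmp6 goes from a mean of 0.448 to 11 between untreated and DDC hepatocytes, and Atoh8 from 59.2 to 7.26 between untreated and DDC biliary cells.

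Between cell types the other pathway genes were called in both directions. In untreated mice 16 of 44 were higher (background 21.6%) and 7 lower (background 15.6%) in biliary cells than in hepatocytes, and in DDC mice 15 were higher (background 20.2%) and 11 lower (background 14.4%). Medians over the 44 were 0.61 and 0.56, against 0.12 and 0.14 over all genes. Among those lower in biliary cells, Hamp (-2.56 and -2.72), Hfe2, the hemojuvelin gene (-2.53 and -2.60), and Tmprss6, whose protease cleaves hemojuvelin (-1.83 and -2.16), were each called in untreated and in DDC mice by limma. Hepatocyte markers were present in all biliary libraries, as given above, and their part in the biliary levels of these genes was not tested.

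Bmp6 was higher in biliary cells, by 4.0 in untreated mice (adjusted p = 2.74e-07) and by 1.61 in DDC mice (adjusted p = 0.000738) by limma. Atoh8 was 1.64 higher in untreated biliary cells (adjusted p = 0.00552 from limma) and 1.91 lower in DDC biliary cells (difference -1.91, adjusted p = 0.00224 from limma). Rgma was listed at 0 in all 3 libraries of untreated hepatocytes and stood at 11.5, 10.2 and 11.2 scaled TPM in untreated biliary cells. Fstl3, a follistatin-like antagonist, was called higher in biliary cells in both treatments, by 4.11 and 3.18. Rgma and Fstl3 each reached 1 TPM in 9 libraries, none of hepatocytes. Both therefore passed the filter only through groups in which they were high. Stellate cell and fibroblast markers summed to 124 to 140 scaled TPM in untreated biliary cells and 1.41 to 5.38 in untreated hepatocytes. In DDC mice they summed to 397 to 646 and 15.2 to 24.1. Their part in these differences was not tested.

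Of the 4 SMAD transducers measured, Smad9 stood at 4.59, 17.7 and 10.4 scaled TPM in DDC hepatocytes and 0.630, 3.67 and 1.08 in DDC biliary cells, and was called lower in the latter (difference -2.08, SE 0.53, adjusted p = 0.00412 from limma). It was not called in the other 6 comparisons, but with the replicate number as a block it was also called between untreated biliary cells and hepatocytes and between reprogrammed cells and DDC hepatocytes. Smad9 was named after its values were seen. Smad1, Smad5 and Smad4 were not called in any of the 7 comparisons, with Smad5 0.89 higher in untreated biliary cells (adjusted p = 3.22e-05 from limma) and 0.81 higher in DDC biliary cells (adjusted p = 7.68e-05 from limma). The type I receptor gene Acvr1 and the co-receptor gene Eng were not called in any comparison either, and Gdf2, a ligand gene, was low at means of 0.0708 to 1.01. Acvrl1, a type I receptor known from endothelial cells, was higher in biliary cells in both treatments (1.71 and 2.0) at 2.54 and 3.34 scaled TPM. The 10 endothelial markers summed to 4.56 to 30.0 across all libraries, with the highest sum in library 3 of DDC biliary cells. Of 8 measured, 1 was called higher and 0 lower in DDC biliary cells than in DDC hepatocytes by limma (background 20.2% and 14.4%). In untreated mice 0 were called higher and 0 lower (background 21.6% and 15.6%). The part of these markers in the level of Acvrl1 was not tested. Acvrl1 reached 1 TPM in 8 libraries, none of hepatocytes, and so passed the filter only through groups in which it was high.

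Of the E proteins that Id proteins bind, Tcf3 and Tcf12 were called higher in biliary cells in both treatments, Tcf3 by 1.69 and 1.28 and Tcf12 by 1.22 and 1.06. Tcf4 was not called, at 0.52 and 0.43. In DDC against untreated hepatocytes none of the 3 was called, Tcf3 being 0.79 higher (adjusted p = 0.00238 from limma).

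In reprogrammed cells 8 of 44 pathway genes were higher (background 13.7%) and 2 lower (background 5.77%) than in DDC hepatocytes. The higher ones were Fstl1, Pmepa1, Fstl3, Nbl1, Rgma, Acvrl1, Bmp6 and Tcf3, with differences from 3.84 for Fstl1 to 1.04 for Tcf3. By contrast, those lower were Hfe2 (-1.55) and Tmprss6 (-1.11). Against DDC biliary cells 2 were higher, again Hfe2 (1.05) and Tmprss6 (1.05), against a background of 2.78%, and none lower by limma against 0.734%, where 12 were lower at an unadjusted p under 0.05. Both calls were lost where only the compared groups entered the fit. With the replicate number as a block 5 were called, Fst, Hamp and Hamp2 being added. Without library 2 of reprogrammed cells or library 3 of DDC biliary cells none was called. Of the genes higher than in DDC hepatocytes, Fstl1, Fstl3 and Rgma reached 1 TPM in 9 libraries, Acvrl1 in 8 and Nbl1 in 7. None of these were hepatocyte libraries, so the filter was passed only through groups with high values. Pmepa1 reached 1 TPM in 10 libraries, mostly outside hepatocytes, and passed through the same groups. Of 9 measured stellate cell and fibroblast markers, 2 were called higher than in DDC hepatocytes and 0 lower by limma. Their part in these differences was not tested.

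Across the 15 libraries the members' own patterns differed in likeness, given here as Pearson r of log2 values over libraries that share groups. Id1 and Id2 had r = 0.97, Id1 and Smad6 0.93, Id1 and Smad7 0.92 and Id1 and Id3 0.89. Bmpr1a and Bmpr2 had 0.96, while Id1 with Bmpr1a had 0.55 and Id1 with Bmp4 0.24. Of 9451 genes with at least 10 scaled TPM in their highest group, the 5 most like Id1 were Tm4sf4 (r = 0.971), Cc2d1a (0.968), Ptgr1 (0.968), Prom1 (0.964) and Ctps2 (0.957). Prom1, which encodes the surface protein prominin 1, had means of 0.0650 scaled TPM in untreated hepatocytes, 23.8 in DDC hepatocytes, 41.3 in reprogrammed cells, 67.3 in DDC biliary cells and 136 in untreated biliary cells. Tm4sf4, a tetraspanin-like membrane protein gene, had 143, 984, 1021, 754 and 1321 in the same order.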

How the data were processed

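RNA of 15 sorted mouse liver libraries was sequenced by the authors, and the deposited values are gene TPM, made with Salmon for build mm10 per the submitters' processing notes. No version of Salmon is named in those notes. TPM keep no read totals, so the depth behind each value is unknown and no counting interval can be given.

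Genes with at least 1 TPM in at least 3 libraries (13905 of 24493) were divided by 1 factor per library, the median ratio to the geometric mean over 11924 genes. Values of log2(scaled TPM + 1) were fitted with limma 3.58.1 in R 4.3.3, in a single model of all libraries (trend on, 10 residual degrees of freedom), with p-values adjusted by Benjamini-Hochberg. Calls needed an adjusted p under 0.05 and a difference of at least 1. Pathway genes were named where called and at or above 10 scaled TPM in either group, up to 6 per comparison, with a fixed set of 15 others. Not every called pathway gene is reported by name. The 5 genes most like Id1 were taken by Pearson r. The members, gene lists and tests were chosen with earlier results of these data known. Positions came from GENCODE M21 (GRCm38, the assembly of mm10), and promoter windows from RefSeq (GRCm38.p6). Figures used matplotlib 3.10.9 in Python 3.11.15.

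On simulated data, 89 to 96 of 100 genes changed by 2 and 95 to 99 of 100 changed by 3 were recovered across the 7 comparisons, over 13905 genes, with 1 to 6 false calls. The changed genes were drawn from those with a mean log2(scaled TPM + 1) above 3. Groups shared a common mean, with independent noise and no pairing. The recovery rates therefore do not cover lower genes such as Bmp2, Bambi and Id4. The numbers in the titles were checked for pairing: deviations of same-numbered libraries correlated at 0.150 to 0.236 for the untreated pair of groups. In DDC mice they correlated at 0.136 to 0.449 for reprogrammed cells with hepatocytes, 0.208 to 0.456 with biliary cells, and 0.0436 to 0.319 for hepatocytes with biliary cells. Between untreated and DDC mice they correlated at -0.0992 to 0.0795 in hepatocytes and -0.118 to 0.0891 in biliary cells. The first 3 comparisons, all above 0.1, were taken as paired, and the others were not. The main tests used no pairing, so all p-values given above ignore it. Pairing entered only through the replicate block, an alternative that also tied DDC hepatocytes to DDC biliary cells. The labels do not say that a number marks an animal. Alternatives were other scalings, pseudocounts of 0.1 and 5, other filters, only the compared groups, limma settings, the replicate block, the adjusted p alone, and leaving out each library.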

Additional observations from a re-analysis of the deposited data

Results flagged for a closer look

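Values of 11 genes invite a closer look because the DDC responses of hepatocytes and biliary cells went apart. Id1 and Id3 stood out because every DDC library was above every untreated one in hepatocytes and below every untreated one in biliary cells, with differences between the responses of 5.96 and 4.73 on the log2 scale. The difference was not tested for either, since the set was chosen for it. For 9 other pathway genes limma called the difference itself: it was 3.55 for Atoh8, 2.39 for Bmp6, 1.81 for Id4, 1.79 for Bmp7 and 1.15 for Rgma, all with the higher response in hepatocytes, and -2.04 for Pmepa1, -2.0 for Nbl1, -1.36 for Runx2 and -1.18 for Skil, with the higher response in biliary cells. With a pseudocount of 5, the calls of Bmp6 (1.03), Id4 (0.65), Rgma (0.74), Nbl1 (-0.92), Runx2 (-0.42) and Skil (-0.89) were lost, and with a pseudocount of 0.1 those of Bmp7 (1.90) and Pmepa1 (-1.07). Id4 and Runx2 passed the filter only through libraries of DDC mice, in which they were high. Rgma, Nbl1 and Pmepa1 passed it only through biliary and reprogrammed cells, in which they were high. The calls of all these genes are therefore given as a description.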

How the results depend on the processing

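The replicate block was set within treatment, since same-numbered libraries deviated together in 3 comparisons within a treatment and not between untreated and DDC mice. It moved the called pathway genes from 2 to 5 for reprogrammed against DDC biliary cells and from 5 to 8 for DDC against untreated hepatocytes, where the numbers pair no samples, and changed no member's call in the 4 comparisons between cell types. Depth is unknown, so no floor can be given for the low genes Bmp2, Bambi and Id4. The cause of the shifts below was not tested.

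For biliary cells against hepatocytes in DDC mice, 4 members were called, against 8 in TPM as deposited, 2 with quantile normalization, 1 with a pseudocount of 5 and 3 to 4 without single libraries. For reprogrammed cells against DDC hepatocytes the 0 called members became 6 in TPM as deposited, 2 with a pseudocount of 0.1, 7 on the adjusted p alone and 0 to 1 without single libraries. In untreated mice the members called ranged from 6 to 8 without single libraries.

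Signs turned as follows, in differences that were not called, although those of Bmp2 (0.77 and 0.93 for biliary cells against hepatocytes, 0.73 for reprogrammed cells) and Bambi (0.80 for reprogrammed cells) had passed the adjusted p. In untreated biliary cells against hepatocytes Bmp2 became -0.35 with quantile normalization and Bmp4 0.25 in TPM as deposited. In DDC biliary cells against DDC hepatocytes Id1 became 1.02 as deposited and 0.61 with quantile normalization, Bmp2 -0.12 and Bmp4 -0.76 with the latter; without single libraries Id1 ranged from -0.82 to 0.36, Id2 from -0.16 to 0.38, Bmp4 from -0.12 to 0.21 and Smad7 from -0.10 to 0.80. In reprogrammed cells against DDC hepatocytes Id1 became 0.77 and 0.35, Id2 0.77 and 0.68 (as deposited and by quantiles), Bmp2 -0.16 and Bambi -0.072 by quantiles; without single libraries Id1 ranged from -0.76 to 0.42, Id2 from -0.31 to 0.23 and Smad7 from -0.26 to 0.64. Against DDC biliary cells Id1 became -0.25 and -0.26, and without single libraries Id1 ranged from -0.14 to 0.29 and Bmp2 from -0.42 to 0.056.

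Pathway genes called moved as follows. For DDC biliary against DDC hepatocytes 26 became 14 with a pseudocount of 5. For reprogrammed against DDC hepatocytes 10 became 18 as deposited, 5 with a pseudocount of 5, 25 on the adjusted p alone and 9 to 14 without single libraries. Against DDC biliary cells 2 became 1 with a pseudocount of 5, 0 with only the compared groups, 7 on the adjusted p alone and 0 to 4 without single libraries. For DDC against untreated hepatocytes 5 became 9 with a pseudocount of 0.1, 3 with only the compared groups, 10 on the adjusted p alone and 4 to 8 without single libraries. For biliary cells 8 became 5, and for the difference between the responses 9 became 4, with a pseudocount of 5.

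Over all genes, TPM as deposited gave 7820, 7787 and 4249 calls for untreated biliary against hepatocytes, the same in DDC mice, and reprogrammed against DDC hepatocytes. A pseudocount of 5 gave 3371, 3023, 1482, 298 (reprogrammed against DDC biliary), 797 (DDC in hepatocytes), 750 (DDC in biliary cells) and 582 (difference), the adjusted p alone 9298, 9095, 6620, 2053, 3898, 3638 and 1780. A pseudocount of 0.1 gave 2330 for DDC in hepatocytes, and only the compared groups 3 for reprogrammed against DDC biliary cells, which ranged from 99 to 833 without single libraries.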
